A study of Papio hamadryas with 12 samples.

Results

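The 4 genes described here were each abundant in both blood libraries of some baboons and low or near absent in both libraries of the others, whichever diet the animal ate. They lie on chromosome 20 (956 bp), chromosome 13 (409 bp), chromosome 18 (540 bp) and chromosome 10 (17024 bp). They were chosen by their positions in the count table for this pattern in the same 12 libraries, and they are 4 of 27533 genes in the table and 4 of the 11579 genes tested. Their levels across baboons, the gaps and the on to off ratios are therefore a description. The phenotypes were not part of the choice, but the fits between them rest on the same levels, so their p-values support nothing about these genes. The libraries are RNA-seq of buffy coat, the layer of white blood cells and platelets of centrifuged blood, from 6 adult baboons (Papio hamadryas). High LDL-C baboons on the high cholesterol, high fat (HCHF) diet, low LDL-C baboons on that diet, high LDL-C baboons on chow and low LDL-C baboons on chow gave 3 libraries each. Each baboon was sampled on chow and then after 7 weeks of the HCHF diet, so that diet and time of sampling cannot be told apart. Numbers 4 to 6 stand for the high and 1 to 3 for the low LDL-C animals, in no order. The animals were half-sibs, but the labels do not say which shared a parent.

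Transcript levels that differ strongly between individuals and stay steady within one are a known feature of blood, where inherited variants in or near a gene set part of its expression. LDL-C is the cholesterol carried in low density lipoproteins, and white blood cells take up such lipoproteins and respond to their load. The files give Ensembl IDs with positions and pair no ID with a gene symbol, so no product or function is given for any of the 4 genes, and the white blood cell markers could not be checked.

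Levels are CPM, the count scaled to the library's total and adjusted by the TMM factor, which makes libraries comparable when a few genes take much of the total. Library totals ranged from 3434663 to 8518159 counts. The 2 most abundant genes took 43.5 to 63.9% of the counts in 9 libraries. Their share was 16.3% for baboon 6 on the HCHF diet, 16.8% for baboon 1 on chow and 89.3% for baboon 2 on chow. These 3 libraries stood apart, with TMM factors of 2.24 (baboon 6), 2.16 (baboon 1) and 0.134 (baboon 2), against 0.713 to 1.48 in the other 9. The labels list 6 index sequences, each carried by 1 high and 1 low LDL-C library on the same diet, so that baboons 4 and 2, 5 and 1, and 6 and 3 shared an index on both diets. The methods of the study describe 1 pool that held every sample, run on a single lane. The labels give no pool or lane, and how libraries with a shared index were told apart is not stated.

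The gene ENSPANG00000022801 on chromosome 20, from 56901050 to 56902005 in the baboon annotation of the authors (Ensembl PapAnu2), showed the widest gap. Its level was 108 CPM on the HCHF diet and 75.6 CPM on chow in baboon 5, 59.1 and 63.4 CPM in baboon 6, 194 and 66.0 CPM in baboon 1, and 198 and 80.8 CPM in baboon 3. In baboon 4 it was 0 CPM on the HCHF diet and 0.128 CPM on chow, and in baboon 2 it was 0 and 0.874 CPM. The gene was thus on in 2 of 3 high and 2 of 3 low LDL-C baboons and off in the remaining baboon of each phenotype, where on means above the widest gap in the 12 ordered levels. The 8 libraries with the gene on held 290 to 843 counts, and the other 4 held 0, 0, 1 and 1. The lowest library with the gene on was 67.7-fold above the highest with it off, and the counts pooled over libraries and set against their scaled totals gave a ratio of 953 (95% counting interval 264 to 7870, which covers counting error only). The highest level with the gene off was a single count in the chow library of baboon 2, which has 915109 counts outside the 2 most abundant genes.

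The gene ENSPANG00000010963 on chromosome 13, from 663967 to 664375, was on in baboon 5 alone. Its level there was 169 CPM on the HCHF diet and 118 CPM on chow, from 729.2 and 574.4 expected counts. In the other high LDL-C baboons it was 1.75 and 1.78 CPM (baboon 4) and 1.89 and 1.23 CPM (baboon 6). In the low LDL-C baboons it was 3.95 and 1.96 CPM (baboon 1), 1.93 and 5.83 CPM (baboon 2) and 4.22 and 1.98 CPM (baboon 3). Both libraries of baboon 5 lay above the other 10, as the choice of the gene fixed, and the gap was 20.3-fold. The gene was not at 0 in the 10 libraries with it off, which held 6.18 to 19.7 expected counts each. The pooled ratio was 64.2 (95% counting interval 53.4 to 78.3).

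The gene ENSPANG00000010235 on chromosome 18, from 54770135 to 54770674, was on in 1 baboon of each phenotype. Its level was 49.3 CPM on the HCHF diet and 39.7 CPM on chow in baboon 5, and 93.7 and 34.1 CPM in baboon 1. In the other high LDL-C baboons it was 3.64 and 2.45 CPM (baboon 4) and 2.67 and 3.08 CPM (baboon 6). The other low LDL-C baboons had 2.59 and 2.15 CPM (baboon 2) and 7.39 and 4.30 CPM (baboon 3). The 4 libraries with the gene on all lay above the other 8, but the gap of 4.62-fold was the narrowest of the 4 genes, and baboon 3 came nearest from below. The pooled ratio was 14.5 (95% counting interval 12.1 to 17.5).

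The gene ENSPANG00000011181 on chromosome 10, from 916190 to 933213, was again on in baboon 5 alone and was the only one of the 4 genes with a span over 1000 bp. Baboon 5 had 16.0 CPM on the HCHF diet and 17.3 CPM on chow, from 69 and 84 counts. Baboon 6 came next, with 1.43 and 1.59 CPM from 11 and 8 counts, and baboon 4 had 0.454 and 0.256 CPM. The low LDL-C baboons had 0.691 and 0.895 CPM (baboon 1), 1.08 and 0.874 CPM (baboon 2) and 1.16 and 0.557 CPM (baboon 3). Both libraries of baboon 5 stood above the other 10, with a gap of 10.03-fold and a pooled ratio of 18.9 (95% counting interval 13.6 to 26.7). Fewer cells of a type and less RNA per cell cannot be told apart in such bulk samples, here or for the other 3 genes.

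**Figure D1:**
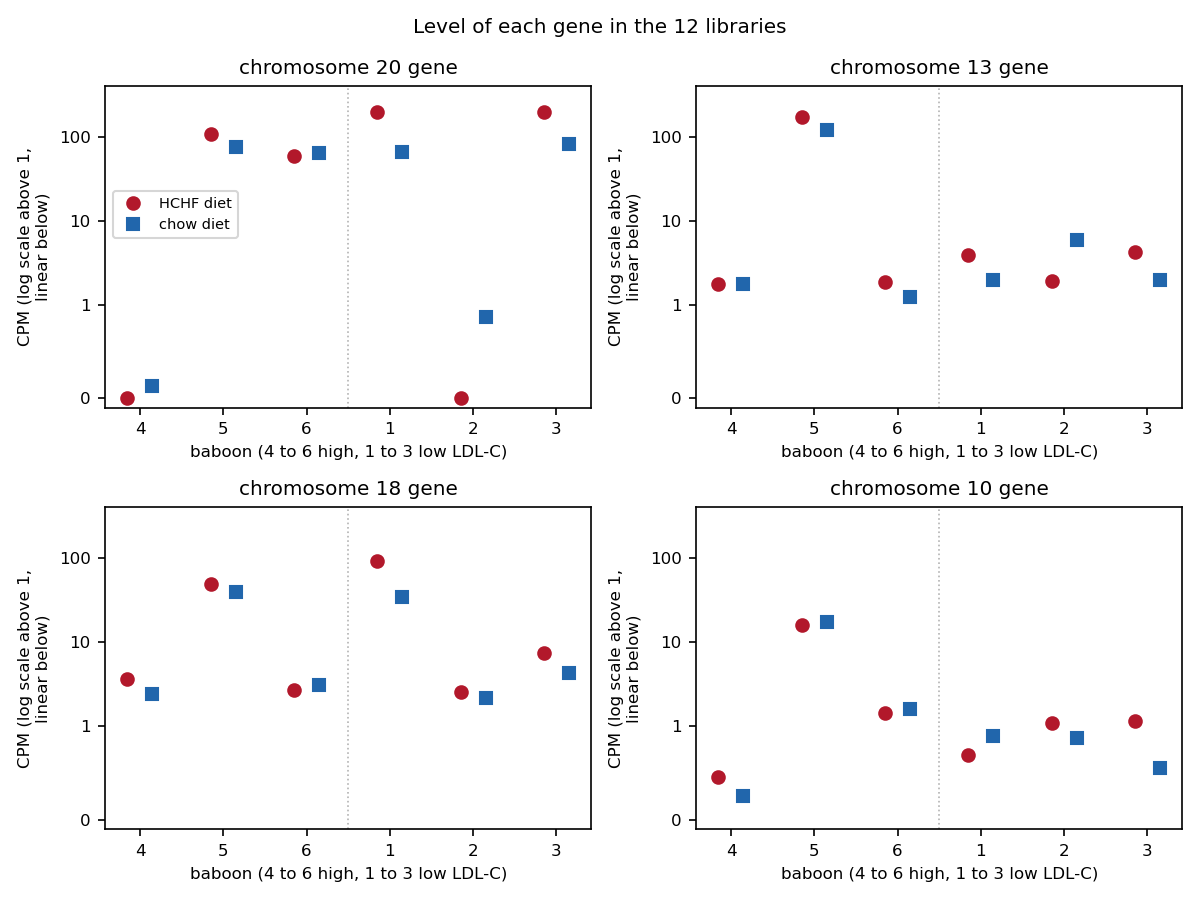
Level of each of the 4 genes in the 12 libraries, in CPM (vertical axis, logarithmic above 1 CPM and linear below), by baboon, with high LDL-C baboons left of the dotted line and low LDL-C baboons right of it. Circles are HCHF and squares chow libraries, and both libraries of a baboon fell on the same side of the gap for every gene.

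Baboon 5 had all 4 genes on, baboon 1 had 2, baboons 6 and 3 had 1 each, and baboons 4 and 2 had 0. The division of each gene was the same with no TMM factor and with the 2 most abundant genes left out of the totals, with gaps of 448 and 73.0-fold for the chromosome 20 gene, 34.9 and 23.0-fold for the chromosome 13 gene, 8.28 and 4.95-fold for the chromosome 18 gene and 5.77 and 10.1-fold for the chromosome 10 gene. It follows from these divisions that no gene of the 4 separated the phenotypes. With fixed limits of at least 2 CPM in both libraries of a baboon for on and under 0.5 CPM in both for off, 0 of the 4 genes had every baboon either on or off, since each gene had at least 1 library in an off baboon at 0.5 CPM or more. At 10 counts for on and 2 counts for off, 1 of them did (the chromosome 20 gene). Over all genes, 2 met the CPM limits and 6 met the count limits.

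Such clean divisions were rare in the table. Of the 11579 genes tested, 350 had both libraries of every baboon on the same side of their widest gap, 11 (0.0950%) had a gap of at least 4-fold on CPM + 0.5, and 4 (0.0345%) a gap of at least 8-fold. The 4 genes were at places 1 (chromosome 20), 2 (chromosome 13), 5 (chromosome 10) and 9 (chromosome 18) among these 11 genes, and as they were chosen for this pattern the places are a description. Among the 11 genes, 4 were on in baboon 5 alone, the chromosome 13 and chromosome 10 genes included, and 0 were on in any other single baboon.

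The division of the chromosome 20 and chromosome 18 genes ran along the shared index sequences. For the chromosome 20 gene the 2 libraries with the same index had the same state in 6 of 6 cases, and likewise for the chromosome 18 gene. The 6 cases are the same pairs of baboons on each diet. As the choice of the genes fixed the same state on both diets, the other diet adds no further case. Baboons 4 and 2, which shared an index on each diet, were the pair with the chromosome 20 gene off, and baboons 5 and 1 were the pair with the chromosome 18 gene on. For the chromosome 13 and chromosome 10 genes this held in 4 of 6 cases, as it must for any gene on in a single baboon. Here baboon 5 had both genes on and baboon 1 had both off on each diet. Of the 11 genes with a gap of at least 4-fold, 3 had the same state in all 6 cases, the chromosome 20 and chromosome 18 genes included. Only a gene on in an even number of baboons can have this. Of such genes among the 11, only the gene on in baboons 1 and 6 did not. The study describes half-sib pairs of 1 high and 1 low LDL-C baboon, and the labels do not say which animals form them, so the index pairs may be the half-sib pairs, and index and family cannot be told apart.

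Each of the 4 genes had a single transcript in the table (ENSPANT00000027212 on chromosome 20, ENSPANT00000003694 on chromosome 13, ENSPANT00000024099 on chromosome 18 and ENSPANT00000022697 on chromosome 10), like 88.6% of the genes tested, so no change of transcript could be seen. The authors' expectation maximization divides a read that aligns to several transcripts among them, which leaves counts that are not whole. The chromosome 20 and chromosome 10 genes had whole counts (within 0.001) in 12 of 12 libraries, like 74.5% of the genes tested. The chromosome 13 and chromosome 18 genes had whole counts in 0 of 12 libraries, as reads shared with another transcript give, so their levels, in the off libraries too, are uncertain. Which transcript that would be was not tested. The chromosome 20, 13 and 18 genes spanned under 1000 bp, which held for 5.50% of the genes tested.

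No tested gene nearby shared a division. The nearest genes to the chromosome 20 gene lay 21469 bp away on the lower side (0 to 11 counts per library) and 16827 bp away on the higher side (3 counts in all 12 libraries together), and neither was abundant enough to be tested. The chromosome 10 gene likewise lay between a gene 47997 bp away with 9 counts in all and a gene 6590 bp away with 0. The nearest gene on the lower side of the chromosome 13 gene, from 601872 to 608935, had 3.25 CPM on the HCHF diet and 3.09 CPM on chow in baboon 5. Both values lay within the 1.39 to 4.58 CPM of the libraries with the chromosome 13 gene off. On the higher side the nearest gene lay 287003 bp away and had 3 counts in all. Next to the chromosome 18 gene, 14419 bp away on the higher side, lay a gene from 54785093 to 54841144. It had 10.9 and 24.5 CPM in baboon 5 and 15.9 and 29.4 CPM in baboon 1. This neighbour had 12.2 to 30.4 CPM in the libraries with the chromosome 18 gene off. The nearest gene on the lower side of the chromosome 18 gene, 119007 bp away, had 18 counts in all. Levels of the higher neighbour where the chromosome 18 gene was on thus overlapped those in the rest. Its level in the HCHF library of baboon 5, however, lay below all others. Within 500 kb of the genes on chromosomes 20, 13, 18 and 10 lay 11, 1, 4 and 14 tested genes, and 0 of them were cleanly divided between the same baboons at any size of gap. Over the whole table only 350 of 11579 tested genes were cleanly divided between any baboons, so 0 among so few genes says little.

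**Figure D2:**
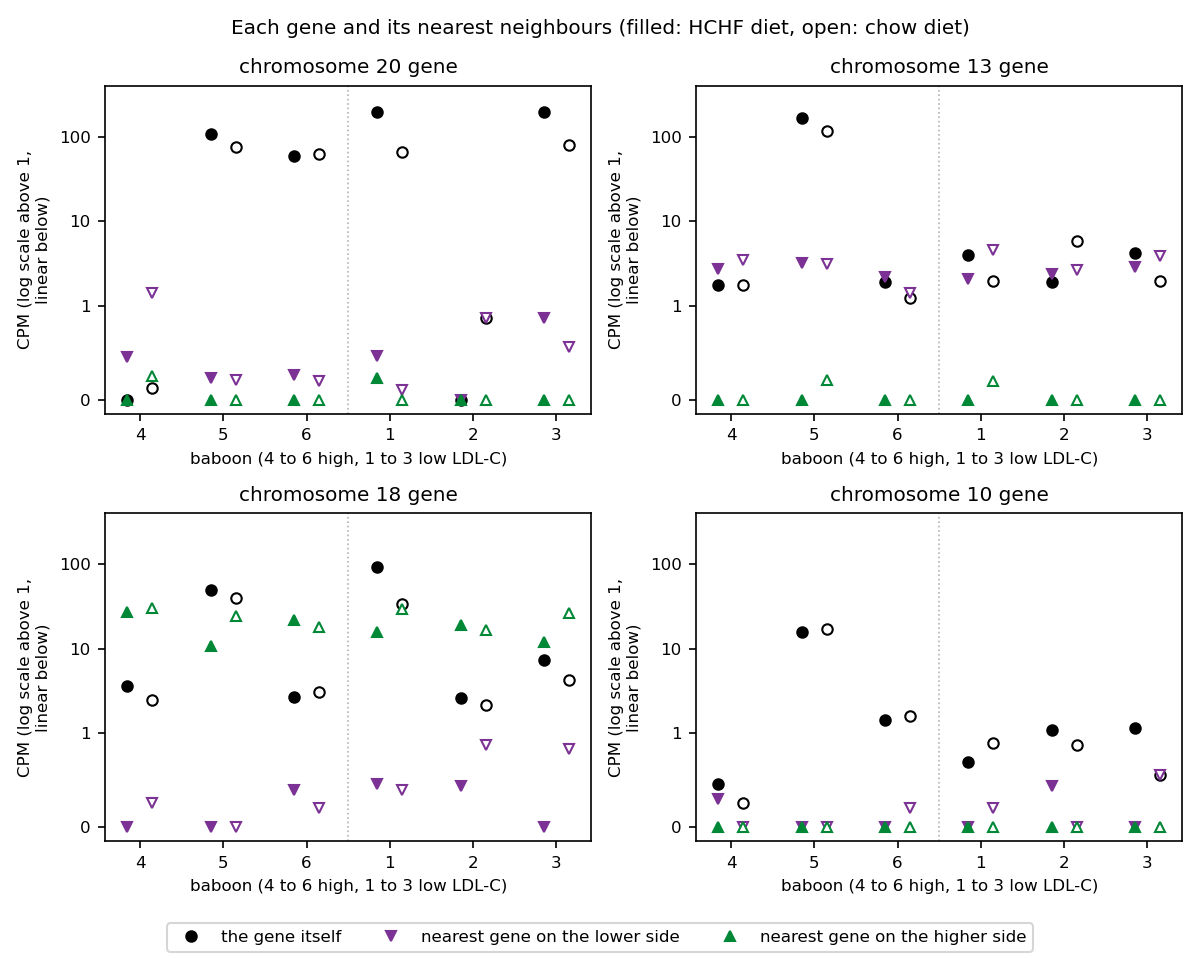
Level in CPM (vertical axis, logarithmic above 1 CPM and linear below) of each of the 4 genes (circles) and of the nearest gene on its lower (purple) and higher (green) side, by baboon, with filled symbols for HCHF and open symbols for chow libraries. The neighbours of the chromosome 20 and chromosome 10 genes lay at 1.41 CPM or less in every library, and the abundant neighbour of the chromosome 18 gene lay between 10.9 and 30.4 CPM in all 12.

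That each gene had the same state on both diets was fixed by the choice of the genes, and only the size of the HCHF to chow ratio where a gene was on is described here. For the chromosome 20 gene the log2 ratio of the HCHF to the chow level (of CPM + 0.5, with the 95% counting interval of the 2 libraries) was 0.51 (0.32 to 0.72) in baboon 5 and -0.10 (-0.31 to 0.11) in baboon 6. In the low LDL-C baboons it was 1.55 (1.41 to 1.71) in baboon 1 and 1.29 (1.09 to 1.50) in baboon 3. The level on the HCHF diet was thus above that on chow in 3 of 4 baboons, with a mean log2 ratio of 0.81 ± 0.75 (SD, n = 4). Baboons 6 and 1 each have a library that stands apart, and with no TMM factor the 4 ratios were 0.40 in baboon 5, 0.78 in baboon 6, 0.27 in baboon 1 and 0.85 in baboon 3, with a mean of 0.58 ± 0.28. Without the 2 most abundant genes in the totals the mean was 0.77 ± 0.73, and baboon 6 was again the only one below 0.

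For the chromosome 18 gene the log2 ratio was 0.31 (0.03 to 0.61) in baboon 5 and 1.44 (1.24 to 1.67) in baboon 1. In baboon 1, whose chow library stood apart, it was 1.40 without the 2 most abundant genes in the totals. There it was 1.44 with the RLE (relative log expression) factors of edgeR, but 0.16 with no TMM factor. In baboon 5, whose libraries did not stand apart, the chromosome 13 gene had a log2 ratio of 0.51 (0.36 to 0.68) and the chromosome 10 gene -0.11 (-0.59 to 0.36). The interval of the chromosome 10 gene spans 0, while those of the chromosome 20 and chromosome 13 genes in baboon 5 lay above 0 under each scaling tried. That of the chromosome 18 gene in baboon 5 spanned 0 without the 2 most abundant genes (-0.03 to 0.55) and with no TMM factor (-0.08 to 0.50). With 1 library for each diet the spread between samples of 1 baboon is unknown.

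**Figure D3:**
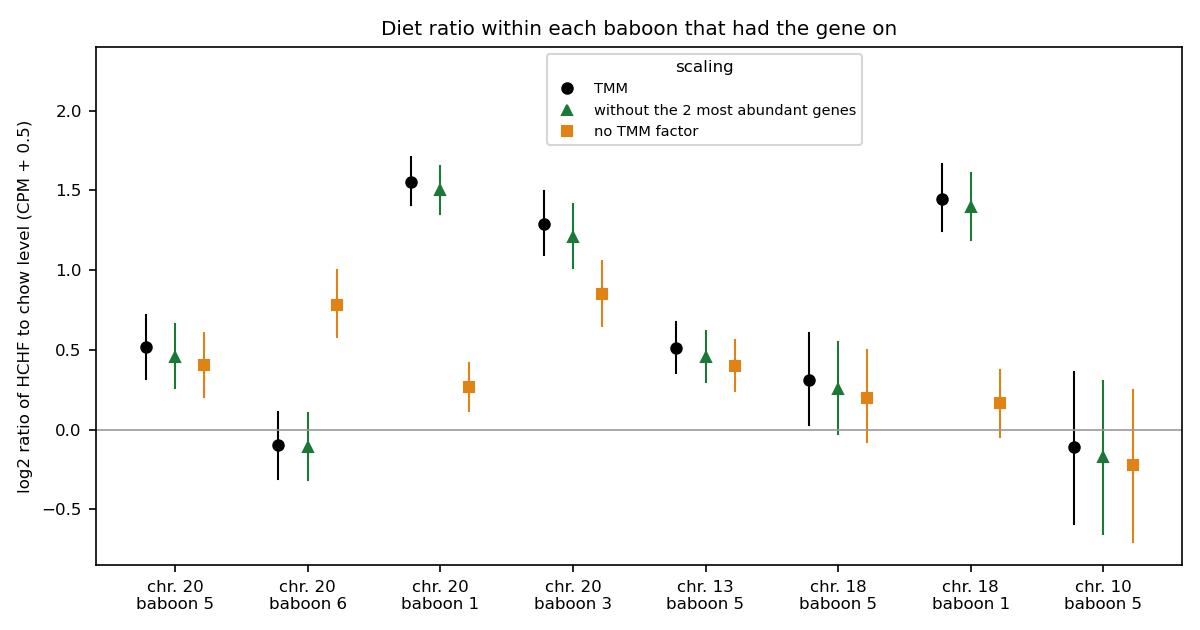
Log2 ratio of the HCHF to the chow level (CPM + 0.5) in each baboon that had the gene on, with 95% counting intervals, under 3 scalings of the libraries (circles TMM, triangles without the 2 most abundant genes, squares no TMM factor). The scaling moved the ratios of baboons 6 and 1 most, from -0.10 with TMM to 0.78 without it for the chromosome 20 gene in baboon 6.

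In the fit across all genes, none of the 4 was called for diet (two-sided quasi-likelihood test of edgeR, with a term for each baboon and Benjamini-Hochberg adjustment over 11579 genes, at an unadjusted p under 0.05 and an adjusted p under 0.20). Over all 6 baboons 0 of 4 were called, where 0% of all genes were. In high LDL-C baboons 0 of 4 were called against 0.112% of all genes, and in low LDL-C baboons 0 of 4 against 0%. At an unadjusted p under 0.05, the counts were 1 of 4 over all 6 baboons (5.33% of all genes), 0 of 4 in high LDL-C baboons (4.31%) and 2 of 4 in low LDL-C baboons (6.06%). DESeq2 called 49 genes over all 6 baboons, 3 in the high and 15 in the low LDL-C group, with 0 of the 4 among them, though it gave no adjusted p for the chromosome 10 gene over all 6 baboons.

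The chromosome 18 gene had the lowest p of the 4 over all 6 baboons, with a log2 fold change of 0.64 (SE 0.26, edgeR adjusted p = 0.931). The chromosome 20 gene had 0.68 (SE 0.40, edgeR adjusted p = 0.943), the chromosome 13 gene 0.38 (SE 0.33, adjusted p = 0.958) and the chromosome 10 gene 0.089 (SE 0.33, adjusted p = 0.994). All 4 values were above 0, while the median of all genes tested was -0.01, and no direction is settled at these adjusted p-values.

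In high LDL-C baboons the log2 fold changes for diet were 0.12 (SE 0.54) for the chromosome 20 gene, 0.42 (SE 0.47) for the chromosome 13 gene, 0.27 (SE 0.34) for the chromosome 18 gene and 0.00057 (SE 0.44) for the chromosome 10 gene, each with an edgeR adjusted p of 1. In low LDL-C baboons they were 1.25 (SE 0.54, edgeR adjusted p = 0.818) for the chromosome 20 gene and 1.10 (SE 0.37, edgeR adjusted p = 0.682) for the chromosome 18 gene. The other 2 genes, which were off in every low LDL-C baboon, had 0.32 (SE 0.54) and 0.23 (SE 0.63). The diet response of high minus that of low LDL-C baboons was -1.13 for the chromosome 20 gene (SE 0.77, edgeR adjusted p = 1) and -0.83 for the chromosome 18 gene (SE 0.50, edgeR adjusted p = 1), and 0 of 4 genes were called for this difference, against 0.225% of all genes. Without baboon 2, in which both genes were off, the chromosome 20 gene (log2 fold change 1.40, edgeR adjusted p = 0.131) and the chromosome 18 gene (1.18, adjusted p = 0.166) were called in low LDL-C baboons. In that fit 8.59% of all genes were called.

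Between the phenotypes, 0 of the 4 genes were called on the HCHF diet or on chow, where 0% of all genes were called on either. At an unadjusted p under 0.05 the counts were 2 of 4 on the HCHF diet (5.94% of all genes) and 0 of 4 on chow (5.92%). DESeq2 called 41 genes on the HCHF diet and 38 on chow, with 0 of the 4 among them, though it gave no adjusted p for 3 of the 4 on the HCHF diet and for 1 on chow. The chromosome 13 gene on the HCHF diet averaged 57.6 ± 96.5 CPM in high and 3.37 ± 1.26 CPM in low LDL-C baboons (SD, n = 3 each), a log2 fold change of 4.13 (SE 1.36, edgeR adjusted p = 0.827). On chow it averaged 40.5 ± 67.5 CPM in high and 3.26 ± 2.23 CPM in low LDL-C baboons, a log2 fold change of 3.86 (SE 1.64, edgeR adjusted p = 0.848). The SDs above the means in high LDL-C baboons come from baboon 5, and without it the log2 fold changes of this gene were -0.79 on the HCHF diet and -0.90 on chow. With no filter on low counts, and also without baboons 1 and 6, this gene was called on the HCHF diet. In both cases baboon 5 was the single baboon that had it on. In these fits 369 of 18388 and 7 of 10662 genes were called.

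The chromosome 10 gene on the HCHF diet averaged 5.96 ± 8.70 CPM in high and 0.978 ± 0.251 CPM in low LDL-C baboons. Its log2 fold change was 2.59 (SE 1.11, edgeR adjusted p = 0.827), and it too was on in baboon 5 alone. On chow its log2 fold change was 2.95 (SE 1.46, edgeR adjusted p = 0.873). The chromosome 20 gene on the HCHF diet averaged 55.8 ± 54.2 CPM in high and 131 ± 113 CPM in low LDL-C baboons (-1.16 on the log2 scale, SE 1.61), and 46.4 ± 40.5 CPM in high and 49.2 ± 42.5 CPM in low LDL-C baboons on chow (-0.12, SE 1.51). The chromosome 18 gene on the HCHF diet averaged 18.5 ± 26.6 CPM in high and 34.6 ± 51.3 CPM in low LDL-C baboons (-0.86, SE 1.23), and 15.1 ± 21.3 CPM in high and 13.5 ± 17.9 CPM in low LDL-C baboons on chow (0.0080, SE 1.26). For these 2 genes, with the same number of baboons on in each phenotype, the differences were smaller than their SEs.

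**Figure D4:**
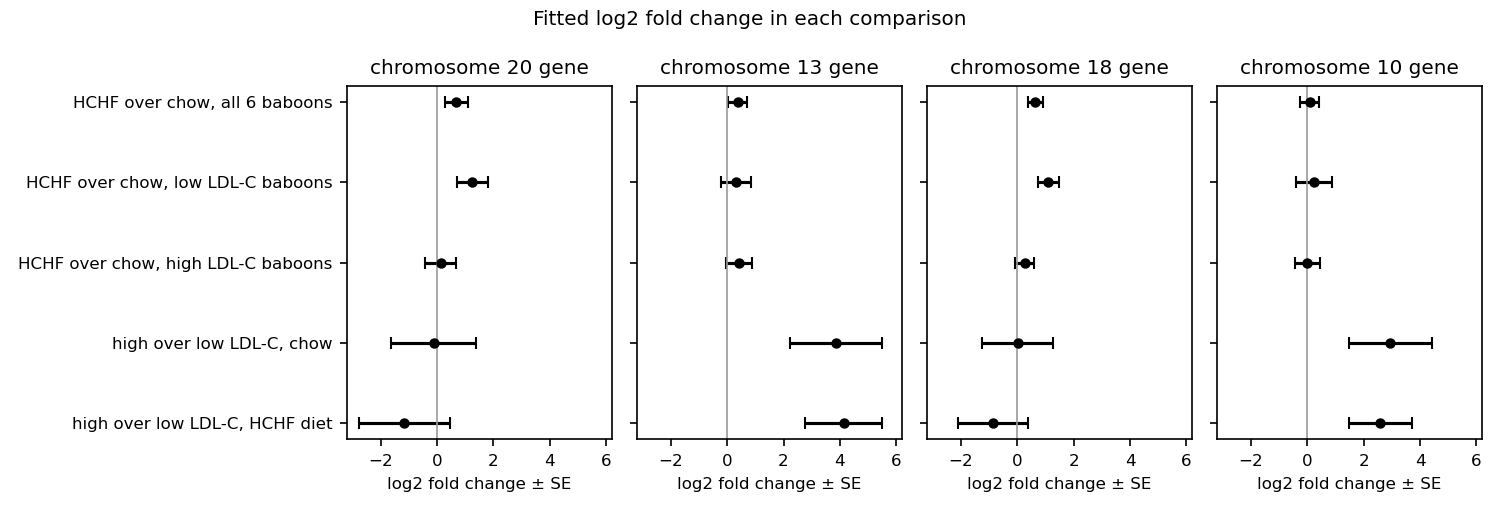
Fitted log2 fold change (horizontal axis, bars ± SE) of each of the 4 genes for HCHF over chow in all 6, low and high LDL-C baboons and for high over low LDL-C baboons on chow and on the HCHF diet. The SEs of the diet comparisons lie between 0.26 and 0.63, and those between phenotypes, which carry the spread of on and off baboons, between 1.11 and 1.64.

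The genes most like each of the 4 were taken as those with the highest Pearson r of log2 (CPM + 0.5) over the 12 libraries, which share baboons and scaling. The chromosome 13 and chromosome 10 genes were each other's nearest (r = 0.93), while r lay between 0.32 and 0.62 for the other pairs of the 4 genes. The 4 genes were chosen from these same levels, and these 2 were on in baboon 5 alone. Their likeness is therefore a description. For the chromosome 20 gene the nearest was a gene on chromosome 8 from 24544795 to 24694781 (r = 0.92), cleanly divided between the same baboons. It had 24.3 to 47.2 CPM where the chromosome 20 gene was on and 14.9 to 18.2 CPM where it was off, so it was expressed in all 12 libraries. Next to the chromosome 13 gene was, after the chromosome 10 gene, a gene on chromosome 19 from 38186130 to 38206217 (r = 0.91), with 19.0 CPM on the HCHF diet and 12.4 CPM on chow in baboon 5 and 3.39 to 6.13 CPM in the other 10 libraries. The gene nearest to the chromosome 10 gene after the chromosome 13 gene lay on chromosome 2 from 50261150 to 50274558 (r = 0.91). By rank correlation (Spearman) 0 of the 3 nearest genes stayed the same for each of the 4, so the named genes depend on the measure of likeness.

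The chromosome 18 gene was most like a gene on chromosome 4 from 69222636 to 69224899 (r = 0.95). The chromosome 4 gene had 366 CPM on the HCHF diet and 832 CPM on chow in baboon 5, 2451 and 798 CPM in baboon 1, and 23.3 to 171 CPM in the other 8 libraries. The 4 highest libraries were thus the same for both genes, and the HCHF library of baboon 3 was the highest of the rest for both. The chromosome 4 gene was not cleanly divided by baboon, as its widest gap set the HCHF library of baboon 1 apart alone. The count of the chromosome 18 gene was 2.80 to 13.5% of that of the chromosome 4 gene, at 13.5% on the HCHF diet and 4.76% on chow in baboon 5 and 3.82 and 4.27% in baboon 1. The share was thus not constant across libraries, and whether the 2 genes share reads was not tested.

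**Figure D5:**
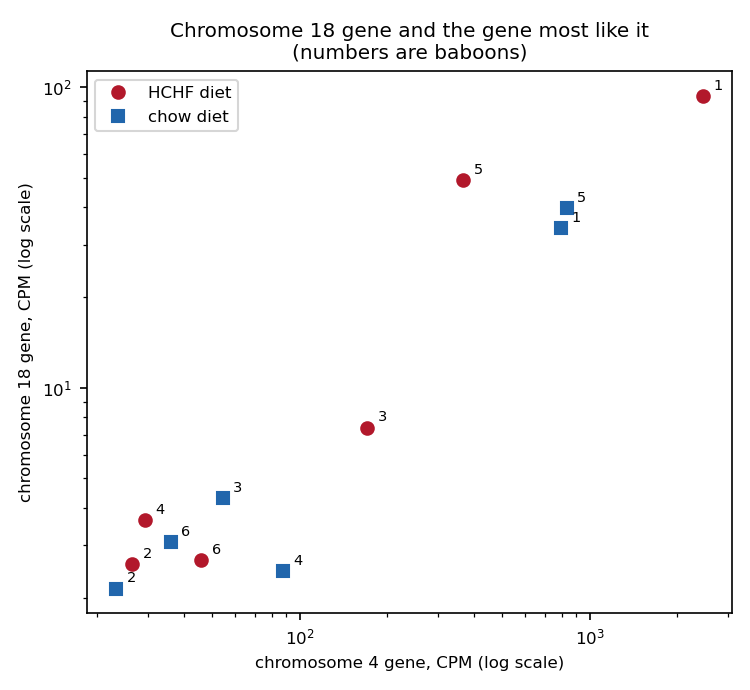
Level of the chromosome 18 gene (vertical axis) against that of the chromosome 4 gene most like it (horizontal axis), both in CPM on logarithmic axes, in the 12 libraries, with the number of the baboon beside each point (circles HCHF, squares chow). The 4 libraries of baboons 5 and 1 lie at the top right, at 34.1 CPM or more of the chromosome 18 gene, and the other 8 at 7.39 CPM or less.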

How the data were processed

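RNA from buffy coats of 6 baboons on 2 diets was sequenced as paired-end libraries. Per the submitters' processing notes and the methods of the study, the authors trimmed reads, used STAR 2.3.1j for alignment to the PapAnu2 transcriptome of Ensembl and quantified transcripts in Partek. The deposited values are the authors' expected counts for 29300 transcripts, not scaled for length or depth. Each gene's expected counts were summed and rounded for the tests, and a minimum mean of 1 CPM left 11579 genes. Tests used edgeR 4.0.16 (TMM, glmQLFit, glmQLFTest, two-sided) with R 4.3.3, limma 3.58.1, and DESeq2 1.42.0 as an alternative. SEs come from the fitted information and the quasi-likelihood dispersion. Diet was tested in all 12 libraries with a term for each baboon, and the phenotypes within each diet, 3 against 3.

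The pairing comes from the animal labels. Deviations of both libraries of a baboon from their group means correlated across genes at 0.194, 0.0791, 0.250, 0.405, 0.257 and 0.135 for baboons 1 to 6. The 4 genes, the rules and the comparisons were chosen with earlier results of these data known. Named besides the 4 genes were the nearest gene on each side and the 3 genes most like each by Pearson r. The widest-gap description, the fits with no TMM factor and without baboons 1 and 6, and the comparison of shared indices were chosen after seeing the data. Alternatives were other thresholds, normalizations, filters and tools, no term for the baboon, and leaving out each baboon in turn. The test was checked on simulated data, in which all baboons shared the same mean profile apart from the planted changes. The check therefore does not cover genes that are on or off by baboon. Marker lists could not be used without gene symbols.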

Additional observations from a re-analysis of the deposited data

How the results depend on the processing

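At an unadjusted p under 0.05 the number of the 4 genes past the threshold was 1 for diet over all 6 baboons, 2 for diet in low LDL-C baboons and 2 between phenotypes on the HCHF diet. Leaving out 1 baboon at a time gave 0 to 2 genes for diet in low LDL-C baboons. With no TMM factor 1 gene (chromosome 13) was called between phenotypes on chow, where 228 of 11579 genes were called. On the HCHF diet 2 genes (chromosomes 13 and 10) were called with no TMM factor, where 3979 of 11579 genes were called. The median log2 fold change of all genes was 1.11 in that fit, against 0.10 with TMM. With no filter 2 genes (chromosomes 13 and 10) were called on the HCHF diet, where 369 of 18388 genes were called. Without baboons 1 and 6 the count was 1 (chromosome 13), where 7 of 10662 genes were called. The fixed on and off limits held for 1 of the 4 genes at 1 CPM for both limits, with no TMM factor, and at 10 and 2 counts. Over all genes they held for 204, 7 and 6 genes in these settings.

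The log2 fold change of the chromosome 10 gene for diet in high LDL-C baboons was -0.0059 with no filter, -0.030 without the 2 most abundant genes in the totals and -0.12 with no replicate block. None of the 4 genes was called for diet with or without the baboon block. Over all genes the block did change calls, with 13 genes called for diet in high LDL-C baboons with it and 0 without it. The log2 fold change of the chromosome 13 gene for diet in low LDL-C baboons was -0.15 without baboons 1 and 6. That of the chromosome 18 gene between phenotypes was -0.0034 on chow with no filter, -0.021 with a mean CPM of at least 5 and -0.47 with no TMM factor, and 2.50 on the HCHF diet without baboons 1 and 6.

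Leaving out 1 baboon at a time, the log2 fold changes that crossed 0 ranged from -0.045 to 0.23 for diet over all 6 baboons (chromosome 10 gene). For diet in low LDL-C baboons they ranged from -0.14 to 1.02 (chromosome 13) and from -0.15 to 0.74 (chromosome 10), and in high LDL-C baboons from -0.13 to 0.14 (chromosome 10) and from -0.25 to 0.32 (chromosome 20). Between phenotypes on the HCHF diet they ranged from -3.39 to 1.98 (chromosome 18) and from -0.79 to 4.70 (chromosome 13), and on chow from -0.68 to 0.47 (chromosome 20), from -2.43 to 2.11 (chromosome 18) and from -0.90 to 4.40 (chromosome 13). The cause was not tested. Of the other log2 fold changes under alternatives, 269 kept direction and side of the threshold and 13 came past it. These counts include the alternatives that changed only the threshold, which keep the values of the main fit and cannot change direction.

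DESeq2 called none of the 4 genes. It gave no adjusted p for the chromosome 10 gene for diet over all 6 baboons or between phenotypes on the HCHF diet, and no p for the chromosome 13 gene between phenotypes on either diet, or for the chromosome 18 gene on the HCHF diet. The share of counts by transcript could not be varied, since each gene has 1 transcript. With 3 baboons in each phenotype and 4 baboons or fewer with a gene on, the spread between animals limits every comparison, and the p-values between phenotypes measure the mix of on and off animals.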

Other observations

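Of the 11 genes that were cleanly divided by baboon with a gap of at least 4-fold, 2 of the 7 besides the 4 genes described were on in baboon 5 alone, like the chromosome 13 and chromosome 10 genes, and 2 were on in baboons 1, 3 and 4. The others were on in baboons 1 and 6, in baboons 2 and 4, and in all baboons but baboon 3, with 1 gene each. Another gene of under 1000 bp was like the chromosome 13 gene, on chromosome 5 from 12188455 to 12189322 (868 bp, r = 0.90). It had 134 CPM on the HCHF diet and 115 CPM on chow in baboon 5 and 11.7 to 57.2 CPM in the other 10 libraries, with counts that were not whole.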
